A study of Rattus norvegicus with 37 samples.

Results

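Albumin (Alb, ENSRNOG00000002911), transthyretin (Ttr, ENSRNOG00000016275) and apolipoprotein E (Apoe, ENSRNOG00000018454) are 3 secreted proteins that the liver makes in bulk. Their 3 rows were taken by identifier from a table of raw counts over 24613 rat genes in 37 liver libraries, and each was followed through all 8 groups, also as a share of the counts of each library. The table carries no gene names, so the names Alb, Ttr and Apoe come from the choice of the identifiers. The RefSeq gene table used here lists 47357 genes and matched 0 of the identifiers. Lists of other plasma proteins, apolipoproteins and cell type markers could not be applied and were not analysed here.

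The study asked how the liver transcriptome of female Sprague-Dawley rats differs with chronic injury of the spinal cord, with activity in the cage and with exercise. The rats were aged 8 to 9 weeks by weight at the time of injury. All injuries were made at thoracic level T2, in rats kept 2 to a cage with a rat of their own group. The In-Cage set had 3 groups of 5 rats. No SCI + Standard rats were uninjured and lived in standard cages, while CONT SCI + Tiny and CONT SCI + Large rats had a contusion of 25 g-cm and lived in tiny or large cages. In the Exercise set every rat lived in a tiny cage. There, No SCI rats were uninjured (n = 4), CONT SCI rats had the same contusion (n = 4) and TX SCI rats had the cord cut completely (n = 4). A further 5 contused rats swam (CONT SCI + SWIM) and 5 walked in shallow water (CONT SCI + SWW), from day 10 for 8 weeks per the labels. Livers were taken 11.5 weeks after injury or at the matching time in uninjured rats, and 8.5 weeks after injury in TX SCI. For the exercised groups the study's methods give a later start, a longer training and a later collection than the labels. By the methods' times, exercise and time since injury cannot be told apart when these groups are compared with unexercised rats. All rats were perfused before 200 mg of liver were taken. A sham operation is not described for the uninjured rats. Injury and cage size therefore cannot be told apart between No SCI + Standard and the contused In-Cage groups, and the kind of injury and the time since injury cannot be told apart for TX SCI.

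Albumin is the most abundant protein of blood plasma, where it holds water in the vessels and carries fatty acids, hormones and drugs. Transthyretin carries thyroxine and, bound to retinol-binding protein, retinol. Apolipoprotein E sits on lipoprotein particles and is the ligand by which receptors of the low-density lipoprotein receptor family take up their remnants. Hepatocytes are the main source of all 3, and macrophages make apolipoprotein E too. In acute inflammation the plasma levels of albumin and transthyretin fall, for which both are known as negative acute phase proteins.

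The libraries fell into separate sets before any result on these genes. Between 20066978 and 25130252 reads were counted on genes in the 15 In-Cage libraries (median 23131856) and between 26190364 and 36761953 in the 22 Exercise libraries (median 32459604), with no overlap. Each library came from its own rat, and the 68 pairs of libraries of 1 group all differed by more than the sampling noise (lowest reduced chi-square over genes, 31). Counting error was small for these genes: the widest 95% Wilson interval of a share reached 0.0150 percentage points to either side. These intervals cover counting error only. For each of these genes the SD of the shares within every group was wider than 0.0150 percentage points. With 1 library per rat, the rat, the piece of liver and the library preparation cannot be told apart in that spread.

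Alb, a defining transcript of hepatocytes, stood first by counts in each of the 37 libraries, which the labels give as liver. Added over all libraries, Apoe ranked 4th and Ttr 15th of 24613 genes. These are ranks of reads, not of molecules, since reads rise with the length of a transcript and the lengths were not used here. The 3 genes together took 12.1% ± 1.92 (SD, n = 15) of the counts of an In-Cage library and 12.2% ± 1.57 (SD, n = 22) of those of an Exercise library. The sum ranged from 8.63% to 15.8% in the In-Cage set and from 9.20% to 14.9% in the Exercise set, so these ranges overlapped almost entirely. The sets hold different groups, and the sums were not compared between groups of like label. Apoe took a larger share of the counts in the Exercise set, as the plot of shares by library shows.

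**Figure D1:**
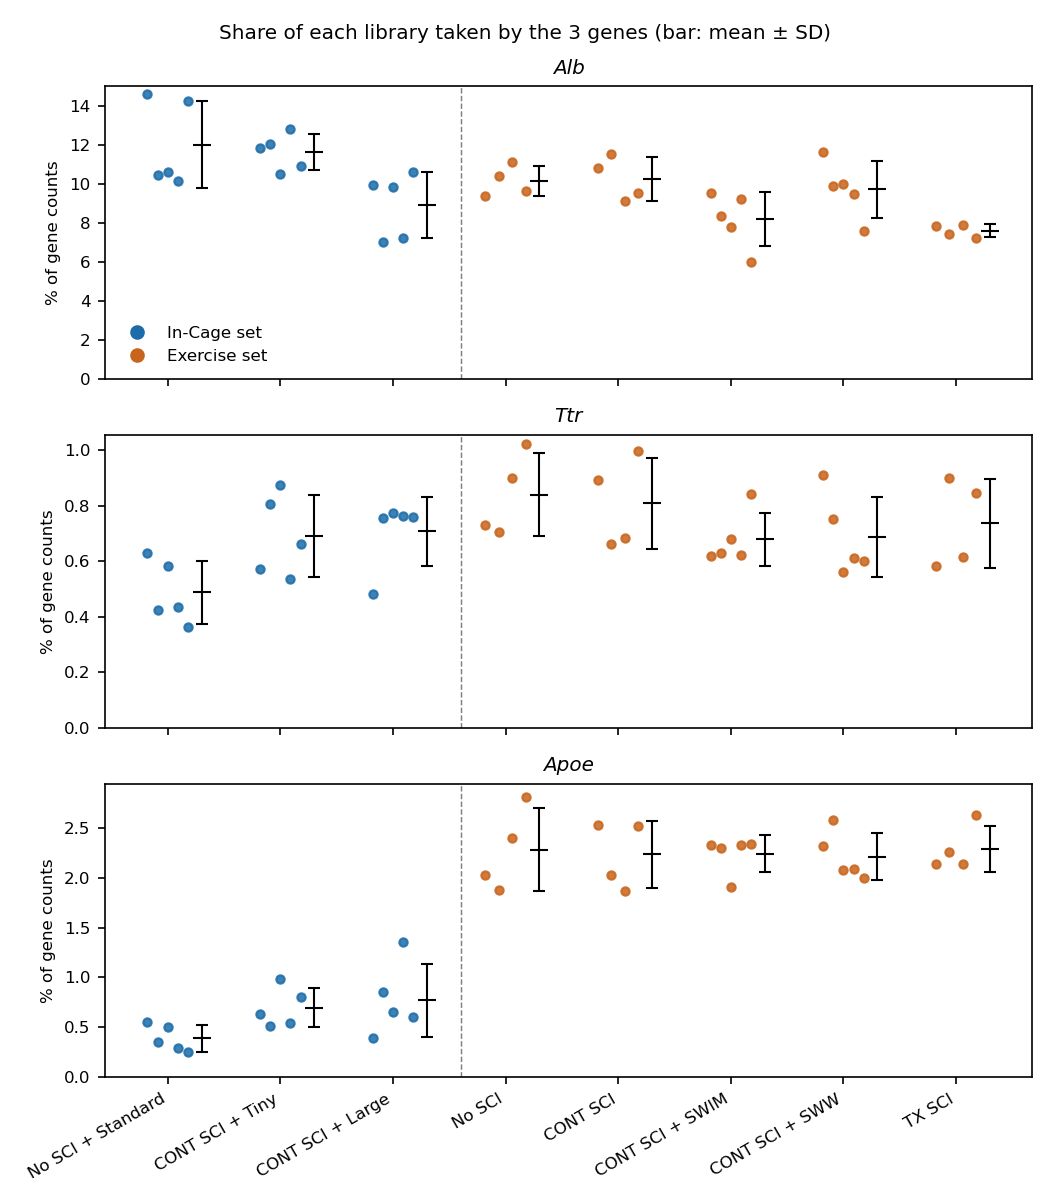
Share of all counts on genes (%, each axis from 0) taken by Alb, Ttr and Apoe in each of 37 libraries, by group, with replicates in order from left to right. Points are libraries, bars are mean ± SD, and the dashed line divides the In-Cage set from the Exercise set. Apoe lies between 0.247% and 1.36% in the In-Cage set and between 1.87% and 2.82% in the Exercise set, while the sets overlap for Alb and Ttr.

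Apoe differed most between the sets. In the In-Cage set it took 0.551, 0.348, 0.505, 0.287 and 0.247% of the counts in No SCI + Standard, replicates 1 to 5. CONT SCI + Tiny libraries held 0.634, 0.511, 0.986, 0.538 and 0.806%, and CONT SCI + Large libraries 0.392, 0.853, 0.649, 1.36 and 0.596%. The uninjured rats were the lowest on average and the CONT SCI + Large rats the most uneven, with replicate 4 at more than the shares of all other In-Cage libraries. In the Exercise set the shares were 2.03, 1.88, 2.40 and 2.82% in No SCI and 2.53, 2.03, 1.87 and 2.52% in CONT SCI. TX SCI libraries held 2.15, 2.26, 2.14 and 2.63%. The exercised rats had 2.33, 2.31, 1.91, 2.33 and 2.34% in CONT SCI + SWIM and 2.33, 2.58, 2.08, 2.09 and 2.00% in CONT SCI + SWW. By rank within a library, Apoe stood between 8th and 55th place in the In-Cage set (median 22) and between 3rd and 5th in the Exercise set (median 4). All 22 Exercise libraries were above all 15 In-Cage libraries, and the lowest of the former held 1.38 times the share of the highest of the latter. Of the 12363 genes with a mean of at least 10 counts, 5.05% were likewise higher in every Exercise library than in every In-Cage library, and 0.194% lower.

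By group mean, Apoe was ordered from TX SCI (2.29% ± 0.232, SD, n = 4) and No SCI (2.28% ± 0.419, n = 4) through CONT SCI + SWIM (2.24% ± 0.184, n = 5), CONT SCI (2.24% ± 0.339, n = 4) and CONT SCI + SWW (2.22% ± 0.237, n = 5) to CONT SCI + Large (0.770% ± 0.367, n = 5), CONT SCI + Tiny (0.695% ± 0.200, n = 5) and No SCI + Standard (0.388% ± 0.134, n = 5). Neighbours in this order were closer than the SD of either group within the Exercise set and between both contused In-Cage groups, while CONT SCI + Tiny and No SCI + Standard were farther apart than the SD of each. The wide step lies between CONT SCI + SWW and CONT SCI + Large, where the sets meet. The spread relative to the mean was also wider in the In-Cage set. The coefficient of variation of Apoe was 28.7% to 47.7% in the 3 In-Cage groups and 8.22% to 18.3% in the 5 Exercise groups. Between the lowest and the highest library the share changed 5.49-fold in the In-Cage set and 1.51-fold in the Exercise set.

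Differences were tested on the counts with edgeR's quasi-likelihood test, after TMM normalization. TMM scales each library on the assumption that most genes do not differ. P-values were adjusted over all genes tested with the Benjamini-Hochberg method, and an adjusted p under 0.05 counted as a call. The 95% intervals of the log2 differences are not adjusted for the number of genes tested. An interval that leaves out 0 is therefore not a call. For Apoe the groups that carry like labels in both sets were compared first. In uninjured rats Apoe was higher in No SCI than in No SCI + Standard by 2.36 on the log2 scale (SE 0.27, 95% interval 1.78 to 2.95, adjusted p = 5.9e-05, edgeR, n = 4 and 5). In contused rats in tiny cages it was higher in CONT SCI than in CONT SCI + Tiny by 1.57 (SE 0.18, 95% interval 1.19 to 1.95, adjusted p = 2.8e-05, edgeR, n = 4 and 5). Both calls were made among very many. In the uninjured comparison 51.4% of the genes tested passed in either direction (26.2% higher) and in the contused comparison 45.1% (22.9% higher). A call alone was thus common, and the size was less so. The log2 difference of Apoe was exceeded in size by 2.02% of the genes tested in uninjured rats and by 3.66% in contused rats. No overlap of the shares with the Exercise libraries higher, as for Apoe, was found for 28.2% and 23.9% of genes. With so many genes called, the assumption behind TMM may not hold in these comparisons. Scaled by library totals alone, the called genes were split 4042 higher and 1723 lower in uninjured rats (3193 and 3059 after TMM) and 3472 higher and 1767 lower in contused rats (2792 and 2713). Set, depth and, for the uninjured rats, cage size cannot be told apart in these comparisons. In bulk liver, fewer cells of a type and less RNA per cell cannot be told apart either.

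**Figure D2:**
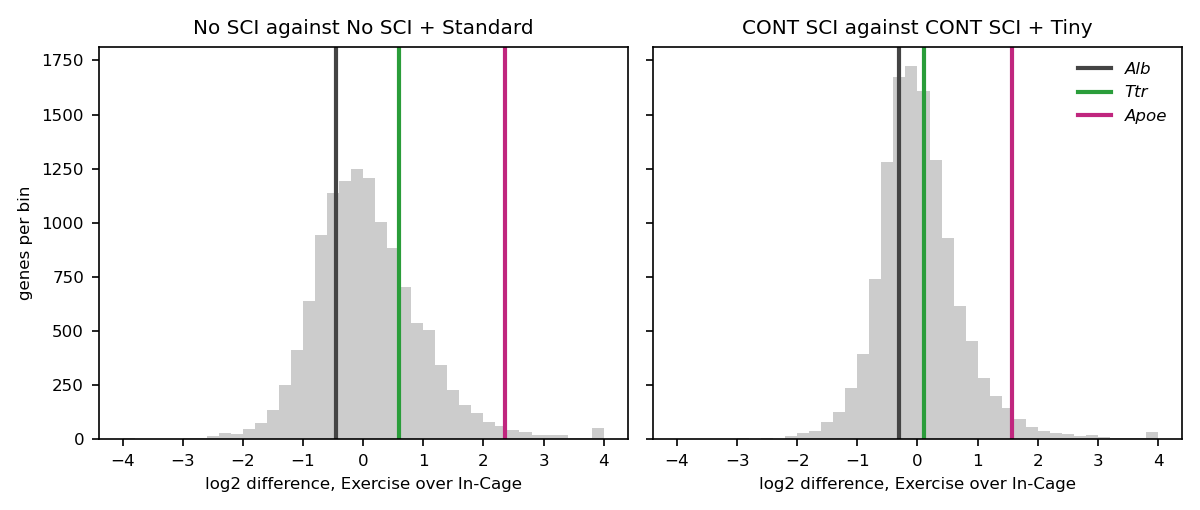
Number of genes (vertical axis) by log2 difference between the Exercise and the In-Cage group of like label (horizontal axis, bins of 0.2 from edgeR), for uninjured rats on the left and contused rats in tiny cages on the right. Bins at the ends also hold genes beyond them. Vertical lines mark Alb, Ttr and Apoe. Apoe lies in the right tail at 2.36 and 1.57, while Alb (-0.45 and -0.31) and Ttr (0.59 and 0.11) lie in the bulk.

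Within the In-Cage set, Apoe was higher in CONT SCI + Tiny than in No SCI + Standard by 0.78 on the log2 scale (SE 0.24, 95% interval 0.26 to 1.30, adjusted p = 0.0489, edgeR). It was the only one of the 3 genes to pass there, while 12.5% of all genes tested passed (5.43% higher). The groups overlapped: the 2 lowest CONT SCI + Tiny libraries (0.511 and 0.538%) lay under the highest No SCI + Standard library (0.551%). The call changed with single rats. It was lost in 8 of the 10 fits that left 1 library out, with adjusted p-values of 0.0521 to 0.123, and was kept only without CONT SCI + Tiny replicate 4 (0.0424) or without No SCI + Standard replicate 1 (0.0086). The number of all genes called moved with it, from 1479 with every library to 15 without No SCI + Standard replicate 4 and 2998 without replicate 1 of the same group. CONT SCI + Large exceeded No SCI + Standard by a similar 0.89, with a wider error (SE 0.33, 95% interval 0.18 to 1.60, adjusted p = 0.109, edgeR), in a comparison where 0.0337% of genes passed. Without CONT SCI + Large replicate 1, the lowest of its group, the adjusted p of this difference was 0.0375 and 2020 genes were called in place of 4. The other 9 fits without 1 library did not pass, and without replicate 4, the highest of the group, the difference was 0.57 (adjusted p = 0.259, edgeR). Between CONT SCI + Large and CONT SCI + Tiny the difference was 0.11 (SE 0.29, 95% interval -0.52 to 0.74). No gene passed that comparison (percent called 0 by edgeR, with 346 genes at an unadjusted p under 0.05 and 3 genes, or 0.0174%, called by DESeq2). The test of any difference of Apoe among the 3 In-Cage groups gave an adjusted p of 0.109 (edgeR).

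Within the Exercise set no difference of Apoe between groups was found by edgeR. The log2 difference of CONT SCI against No SCI was 0.02 (SE 0.18, 95% interval -0.39 to 0.42), in a comparison that called 0.00801% of genes. For TX SCI the difference was -0.04 (SE 0.22) against No SCI and -0.08 (SE 0.17) against CONT SCI, where 0.0638% and 0.0321% of genes were called. CONT SCI + SWIM lay -0.12 (SE 0.12, 95% interval -0.39 to 0.15) and CONT SCI + SWW -0.09 (SE 0.13, 95% interval -0.37 to 0.20) from CONT SCI, with 0.00800% and 0.759% of genes called. The exercised groups differed from each other by 0.02 (SE 0.11, 95% interval -0.22 to 0.27). A test of any difference among the 5 Exercise groups gave an adjusted p of 0.959 (edgeR). The widest of these intervals, that of TX SCI against No SCI, ran from -0.52 to 0.43. Scaled by library totals alone, the difference turned sign in 5 of the 8 Exercise comparisons, with values between -0.028 and 0.035.

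Whether contusion went with a different change of Apoe in the sets was tested directly. CONT SCI minus No SCI in the Exercise set was smaller than CONT SCI + Tiny minus No SCI + Standard in the In-Cage set by a log2 value of -0.78 (SE 0.34, 95% interval -1.49 to -0.08). This did not pass (adjusted p = 0.163, edgeR), in a test that called 0.199% of genes. Without No SCI + Standard replicate 1, the adjusted p was 0.0480 and the value -1.004. The contusion groups of this test were in tiny cages, while the uninjured groups were in standard cages in 1 set and in tiny cages in the other. For Ttr the same difference of differences was -0.47 (SE 0.28, adjusted p = 0.291, edgeR) and for Alb 0.15 (SE 0.22, adjusted p = 0.694).

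**Figure D3:**
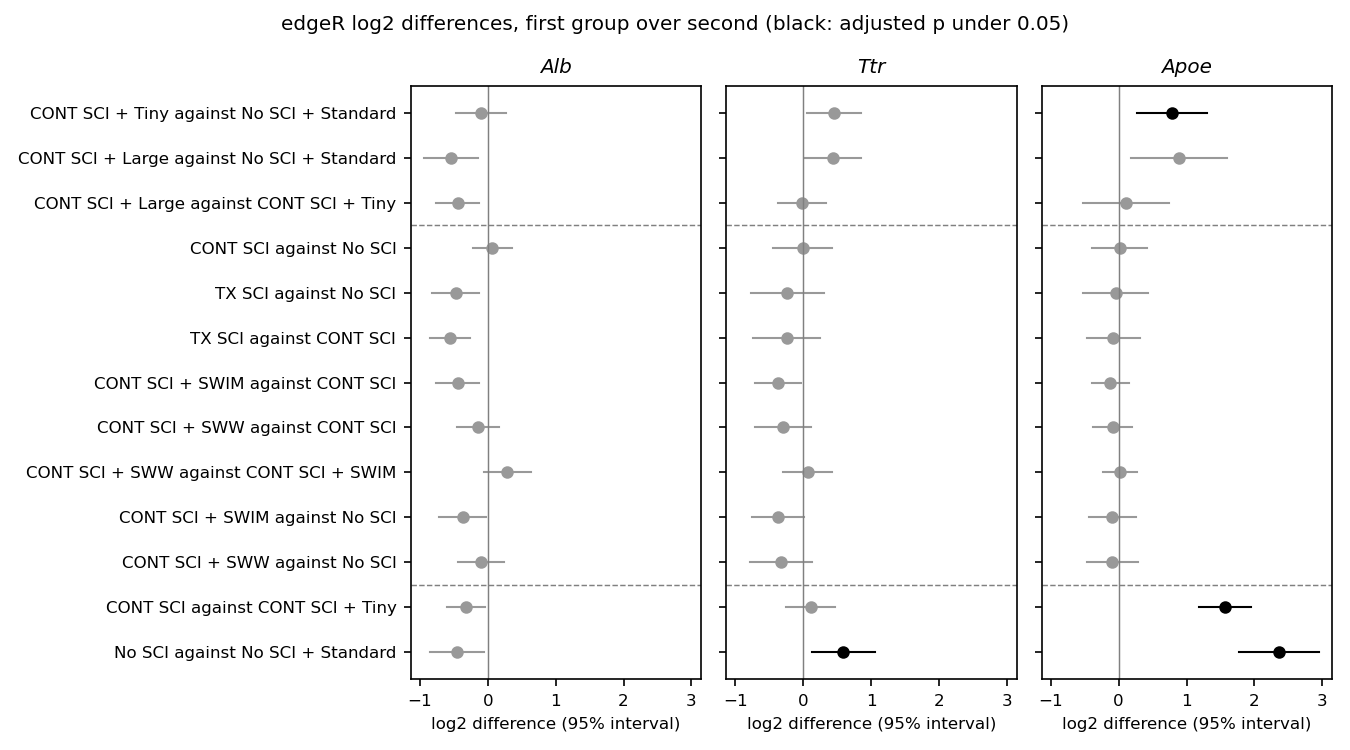
Log2 difference of the first over the second group (horizontal axis, edgeR after TMM) with its 95% interval, for Alb, Ttr and Apoe in 13 comparisons (vertical axis). Black points have an adjusted p under 0.05, grey points do not, and dashed lines divide comparisons within the In-Cage set, within the Exercise set and between sets. Apoe is called 3 times and Ttr 1 time, and Alb is not called in any of the 13 comparisons.

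Alb took 7.02 to 14.6% of the counts in the In-Cage set (median 10.6%) and 6.02 to 11.6% in the Exercise set (median 9.44%). The sets overlapped. Group means ran from No SCI + Standard (12.0% ± 2.21, SD, n = 5) and CONT SCI + Tiny (11.6% ± 0.916, n = 5) through CONT SCI (10.2% ± 1.14, n = 4), No SCI (10.1% ± 0.784, n = 4), CONT SCI + SWW (9.71% ± 1.45, n = 5), CONT SCI + Large (8.92% ± 1.67, n = 5) and CONT SCI + SWIM (8.18% ± 1.39, n = 5) to TX SCI (7.59% ± 0.327, n = 4). The ranges of neighbours in this order overlapped at every step. Of the 4 pairs of neighbours tested, none passed by edgeR, the nearest being CONT SCI against CONT SCI + Tiny at -0.31 (SE 0.13, adjusted p = 0.0643, edgeR).

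TX SCI stood at the low end for Alb. Its 4 libraries held 7.86, 7.42, 7.87 and 7.22% of their counts as Alb, against 9.39, 10.4, 11.1 and 9.63% in No SCI and 10.8, 11.5, 9.10 and 9.51% in CONT SCI. Every TX SCI library was below every library of both other groups, and the spread among the TX SCI libraries was the smallest of the 8 groups (SD 0.327 percentage points). Such a gap, with TX SCI lower, was found for 2.71% of genes against No SCI and for 1.58% against CONT SCI. After TMM the log2 difference was -0.47 against No SCI (SE 0.16, 95% interval -0.82 to -0.13, adjusted p = 0.273, edgeR) and -0.56 against CONT SCI (SE 0.14, 95% interval -0.86 to -0.26, adjusted p = 0.159, edgeR). Neither passed by edgeR, whose test called 8 and 4 genes in all. Both passed by DESeq2 (adjusted p = 0.0231 and 0.00265), which called 2.04% and 2.56% of genes. Without TX SCI replicate 4 the difference from CONT SCI was -0.58 and passed by edgeR (adjusted p = 0.0492, with 234 genes called in place of 4), while the other 7 fits without 1 library did not.

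The swimming rats were the next lowest, with Alb at 9.52, 8.36, 7.80, 9.22 and 6.02% of the counts in replicates 1 to 5 of CONT SCI + SWIM. Replicate 5 was the lowest of all 37 libraries. The log2 difference of CONT SCI + SWIM was -0.44 from CONT SCI (SE 0.15, 95% interval -0.76 to -0.13, adjusted p = 0.259, edgeR) and -0.37 from No SCI (SE 0.16, 95% interval -0.72 to -0.02, adjusted p = 0.445, edgeR). The comparison of CONT SCI + SWIM with No SCI called 0.00796% of genes. Rats that walked in shallow water had 11.6, 9.88, 10.0, 9.48 and 7.58% and lay -0.15 from CONT SCI (SE 0.14, 95% interval -0.45 to 0.16) and -0.10 from No SCI (SE 0.16), where 0.394% of genes were called. The exercised groups overlapped, with CONT SCI + SWW at 0.29 over CONT SCI + SWIM (SE 0.16, 95% interval -0.05 to 0.63, adjusted p = 0.782, edgeR). That comparison called 0% of genes by edgeR, with 680 genes at an unadjusted p under 0.05 and 14, or 0.110%, called by DESeq2. Contusion alone went with an Alb difference of 0.07 (CONT SCI against No SCI, SE 0.13, 95% interval -0.21 to 0.35). Over the 5 Exercise groups together, the test of any difference in Alb gave an adjusted p of 0.0842 by edgeR and 0.00668 by DESeq2, which called 2.65% and 9.62% of genes. TX SCI was not tested against the exercised groups.

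In the In-Cage set the rats in large cages had the lowest Alb. CONT SCI + Large libraries held 9.96, 7.02, 9.82, 7.22 and 10.6%, CONT SCI + Tiny libraries 11.9, 12.0, 10.5, 12.8 and 10.9%, and No SCI + Standard libraries 14.6, 10.5, 10.6, 10.1 and 14.3%. Large-cage replicate 5 overlapped both other groups, and the remaining 4 lay below all of them. The log2 difference from CONT SCI + Tiny was -0.44 (SE 0.15, 95% interval -0.76 to -0.13). This did not pass (adjusted p = 1.0, edgeR). Its p-value ranked 44th of 11920 genes. Of these, 346 had an unadjusted p under 0.05, a smaller share than the 0.05 that tests with no difference would give on average. From No SCI + Standard it was -0.54 (SE 0.18, 95% interval -0.94 to -0.15, adjusted p = 0.0965, edgeR), and DESeq2, which called 12.8% of genes there, gave an adjusted p of 0.0447. CONT SCI + Tiny itself lay -0.10 from No SCI + Standard (SE 0.17, 95% interval -0.46 to 0.27). The test of any difference among the 3 In-Cage groups gave Alb an adjusted p of 0.0860 (edgeR, 4.82% of genes called).

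Ttr took 0.364 to 0.877% of the counts in the In-Cage set (median 0.632%) and 0.563 to 1.02% in the Exercise set (median 0.695%). It stood between 13th and 39th place by rank within a library in the former (median 20) and between 7th and 22nd in the latter (median 14). The uninjured In-Cage rats were lowest, with 0.632, 0.425, 0.582, 0.437 and 0.364% in No SCI + Standard. CONT SCI + Tiny libraries held 0.573, 0.808, 0.877, 0.538 and 0.664%, and CONT SCI + Large libraries 0.483, 0.757, 0.773, 0.765 and 0.761%. Both contused groups overlapped the uninjured one. Their log2 differences from No SCI + Standard were almost the same, 0.45 for tiny cages (SE 0.18, 95% interval 0.06 to 0.85, adjusted p = 0.103, edgeR) and 0.43 for large cages (SE 0.19, 95% interval 0.02 to 0.85, adjusted p = 0.154, edgeR). These comparisons share the No SCI + Standard libraries. Without replicate 1 of that group, its highest, they were 0.62 and 0.62, with adjusted p-values of 0.0176 and 0.0455. The other 9 fits of each comparison did not pass, and without replicate 5, the lowest of the group, the differences were 0.36 and 0.36 (adjusted p = 0.236 and 0.309, edgeR). Between cage sizes Ttr differed by -0.02 (SE 0.16, 95% interval -0.37 to 0.34), a value that turned to 0.03 when scaled by library totals alone.

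In the Exercise set Ttr was highest in No SCI, with 0.730, 0.707, 0.902 and 1.02%, and in CONT SCI, with 0.895, 0.661, 0.684 and 0.999%. TX SCI libraries held 0.584, 0.901, 0.617 and 0.847%, and those of the exercised rats ranged from 0.620 to 0.842% in CONT SCI + SWIM and from 0.563 to 0.910% in CONT SCI + SWW. All 5 groups overlapped. Against CONT SCI, the log2 difference was -0.37 for CONT SCI + SWIM (SE 0.16, 95% interval -0.72 to -0.03, adjusted p = 0.339, edgeR), -0.30 for CONT SCI + SWW (SE 0.19, adjusted p = 0.385) and -0.25 for TX SCI (SE 0.22, adjusted p = 0.676). None of these passed, and neither did the test of any difference among the 5 groups (adjusted p = 0.515, edgeR). By group mean the order was No SCI (0.841% ± 0.150, SD, n = 4), CONT SCI (0.810% ± 0.164, n = 4), TX SCI (0.737% ± 0.160, n = 4), CONT SCI + Large (0.708% ± 0.126, n = 5), CONT SCI + Tiny (0.692% ± 0.147, n = 5), CONT SCI + SWW (0.688% ± 0.143, n = 5), CONT SCI + SWIM (0.679% ± 0.0944, n = 5) and No SCI + Standard (0.488% ± 0.114, n = 5). Only the last step was wider than the SDs of both its groups, and even there the ranges overlapped.

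Between the sets Ttr differed in the uninjured rats by 0.59 on the log2 scale, with No SCI higher than No SCI + Standard (SE 0.21, 95% interval 0.13 to 1.06, adjusted p = 0.0354, edgeR). All 4 No SCI libraries were above all 5 No SCI + Standard libraries, as were those of 28.2% of genes. This call was lost in 5 of the 9 fits that left 1 library out: without No SCI replicate 3 (adjusted p = 0.0819) or 4 (0.107), or without No SCI + Standard replicate 2 (0.0788), 4 (0.0814) or 5 (0.0797). In contused rats in tiny cages the difference between the sets was 0.11 (SE 0.16, 95% interval -0.25 to 0.46, adjusted p = 0.615, edgeR). For Alb it was -0.45 in the uninjured rats (SE 0.18, 95% interval -0.85 to -0.05, adjusted p = 0.0569, edgeR). Of the genes tested, 57.2% had a larger log2 difference than Alb in the uninjured comparison and 45.7% a larger one than Ttr, so both lay in the middle of all genes.

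Ratios of counts within a library do not depend on how libraries are scaled. The ratio of Apoe to Ttr was 0.633 to 1.77 in the In-Cage set and 2.50 to 3.76 in the Exercise set, with no overlap. The share of Apoe alone did not overlap either, while that of Ttr did. Ratios of other genes in the table were not computed. In No SCI the ratio of Apoe to Ttr was nearly constant, at 2.71 ± 0.0634 (SD, n = 4), although the shares of Ttr and Apoe differed 1.45-fold and 1.50-fold between the lowest and the highest of these rats. Group means of this ratio were 1.07 ± 0.419 for CONT SCI + Large, 1.02 ± 0.227 for CONT SCI + Tiny, 0.779 ± 0.104 for No SCI + Standard (n = 5 each), 2.79 ± 0.226 in CONT SCI (n = 4) and 3.19 ± 0.512 in TX SCI (n = 4). The exercised groups had the highest means, with 3.35 ± 0.509 in CONT SCI + SWIM and 3.28 ± 0.430 in CONT SCI + SWW (n = 5 each), within 1 SD of TX SCI. The ratio of Ttr to Alb was lowest in No SCI + Standard (0.0415 ± 0.0105) and highest in TX SCI (0.0979 ± 0.0250). The ratio of Apoe to Alb was 0.0173 to 0.188 in the In-Cage set and 0.176 to 0.389 in the Exercise set, so the ranges overlapped slightly. Its means ran from 0.0329 ± 0.0112 in No SCI + Standard to 0.303 ± 0.0435 in TX SCI.

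Rats with more Ttr than their group mean also tended to have more Apoe, as the plot of Apoe against Ttr shows. After the mean of each group was taken off, the log2 levels of these genes had a Pearson r of 0.74 (Spearman 0.66) over the 15 In-Cage libraries and of 0.82 (Spearman 0.84) over the 22 Exercise libraries. Leaving out the 2 libraries farthest in Ttr gave 0.56 and 0.79. For Alb, r with Apoe was -0.31 in the In-Cage set and 0.31 in the Exercise set, and -0.65 and 0.37 without the 2 libraries farthest in Alb. The r of Alb with Ttr was -0.03 and 0.15, and -0.39 and 0.15 without these libraries. In the In-Cage set both relations of Alb thus depended on which libraries were included. These correlations are descriptions without a test, over libraries that share their scaling, and 3 relations were computed in each set.

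**Figure D4:**
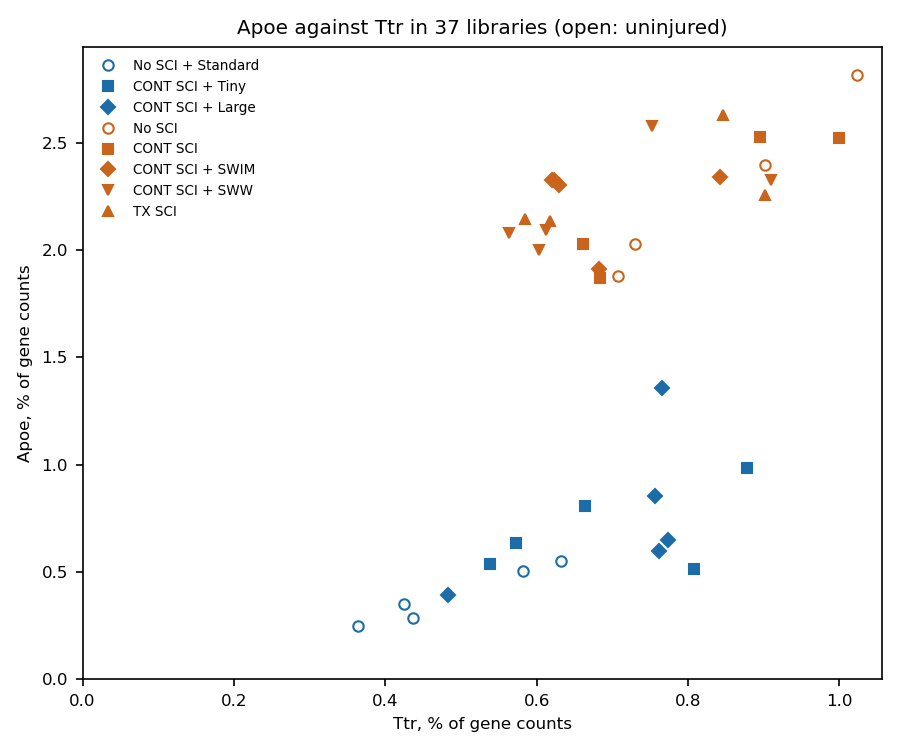
Share of counts of Apoe (vertical axis, %) against that of Ttr (horizontal axis, %) in 37 libraries, 1 point per library. Blue points are the In-Cage set, orange points the Exercise set, open circles uninjured rats and the other symbols the injured groups of the key. At like Ttr shares the Exercise libraries lie above all In-Cage libraries, and within each set Apoe tends to be higher where Ttr is.

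The genes whose pattern was most like each member were sought among 2906 genes with a mean of at least 1000 counts, by Pearson r of log2 TMM levels over 37 libraries after group means were taken off. For Apoe these were ENSRNOG00000014376 (r = 0.97), ENSRNOG00000024568 (0.96) and ENSRNOG00000020607 (0.95), and 184 genes reached an r of 0.8. Within the sets, whose libraries also chose these genes, r was 0.98, 0.99 and 0.98 in the In-Cage set and 0.93, 0.80 and 0.85 in the Exercise set. The median share of these genes was 1.85, 5.57 and 3.19 times as high in the Exercise as in the In-Cage set, beside 4.14 times for Apoe. The shares of ENSRNOG00000014376 and ENSRNOG00000024568 overlapped between the sets, and those of ENSRNOG00000020607 did not. Such ratios were not computed over all 2906 genes. For Ttr the closest were ENSRNOG00000018367 (0.88), ENSRNOG00000054140 (0.87) and ENSRNOG00000037518 (0.87), and 28 genes reached 0.8. Alb had no close companion. Its nearest genes were ENSRNOG00000011599 (0.62), ENSRNOG00000002878 (0.60) and ENSRNOG00000011497 (0.60), and 0 genes reached 0.8. The median share in the Exercise set was 1.76, 0.778 and 1.51 times that in the In-Cage set for these genes. For the genes closest to Ttr it was 1.14, 0.957 and 1.56 times.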

How the data were processed

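Poly(A) RNA of 37 rat livers was sequenced as single-end reads. The authors checked them with FastQC 0.10.1, aligned them to the Rn6 genome with STAR and counted them per Ensembl gene with HTSeq, by strand and without mitochondrial genes. They deposited raw counts, whole numbers without normalization, in 1 table, and all 37 columns were used. Groups came from the sample titles. Members, gene lists and tests were chosen with earlier results of these data known.

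Here, edgeR 4.0.16 in R 4.3.3 was fitted to all genes (glmQLFit, robust, TMM, filterByExpr at a count of 10 and a total of 15) in 13 comparisons of 2 groups, each on its own libraries, 2 tests over all groups of a set and 1 interaction. Between 11852 and 13059 genes were tested. The SE is the log2 difference divided by the square root of F. A share is a count divided by the library's total on genes. The edgeR and DESeq2 fits of 2 groups were tested on simulated counts, for CONT SCI + Tiny against No SCI + Standard and CONT SCI against No SCI. The other tests, settings and tables were not tested in this way. The genes named are the 3 members and, for each, the 3 most correlated genes (prior count of 2).

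The alternatives were DESeq2 1.42.0, RLE, library totals with and without the 3 members, no filter, all groups in 1 fit, a block for the replicate number, and fits that each omit 1 library. For the shares, a total without the 10 genes with the most counts and without Ttr was also used. A replicate number marks no shared rat, litter or day in the labels, so it was not taken as a pairing. The labels do not name cage-mates either, so the fits treat the rats of a group as independent though they shared cages. Comparisons were not made per transcript length, and reads and browser tracks were not used here.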

Additional observations from a re-analysis of the deposited data

Results flagged for a closer look

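Of 48 sets of values tested for a library far from the rest of its group (shares of the 3 genes and 3 ratios, in 8 groups), 5 held one by Dixon's criterion at the 95% level, which chance meets in about 1 of 20. The share of Ttr in CONT SCI + Large was 0.483% in replicate 1 and 0.757 to 0.773% in the other 4. In CONT SCI + SWIM it was 0.842% in replicate 5 and 0.620 to 0.682% in the others. Apoe took 1.91% of the counts of CONT SCI + SWIM replicate 3 and 2.31 to 2.34% in the others of its group. The log2 ratio of Apoe to Alb was -1.36 in CONT SCI + SWIM replicate 5, the library with the lowest Alb, and -2.03 to -1.86 in the others. The log2 ratio of Apoe to Ttr was 1.35 in CONT SCI + SWW replicate 1 and 1.73 to 1.88 in the others. By the study's alignment summary, CONT SCI + SWIM replicate 3 had the lowest percent of uniquely mapped reads of all libraries. The next lowest were libraries of TX SCI and CONT SCI + SWIM, replicate 5 of the latter among them. A link to the values above was not tested.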

How the results depend on the processing

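RLE in place of TMM changed the direction or call of none of the 48 tests of Alb, Ttr and Apoe. The values of Apoe between the sets kept their call under every alternative run. Counting error was small for these genes beside the spread between libraries of a group. Counts of all genes called moved with the alternatives. Against No SCI + Standard, CONT SCI + Tiny called 1479 genes, 2531 by DESeq2, 899 with all groups in 1 fit and 15 to 2998 with 1 library left out. CONT SCI + Large called 4 genes, 1387 by DESeq2, 935 with all groups in 1 fit, 116 without a filter and 0 to 2020 with 1 library left out. The cause of these shifts was not tested.

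By DESeq2 these values passed: Alb in CONT SCI + Large (-0.53, adjusted p = 0.0447) and Apoe there (0.90, 0.0453) against No SCI + Standard, Alb in TX SCI against No SCI (-0.48, 0.0231) and CONT SCI (-0.55, 0.00265), and Alb between the sets (-0.30, 0.0366, contused and -0.44, 0.0404, uninjured). So did the tests of any difference for Alb (adjusted p = 0.0340) and Apoe (0.0435) in the In-Cage set and for Alb in the Exercise set (0.00668). DESeq2 called 1.5 times as many genes as edgeR or more in every comparison but those between the sets: 291 and 363 for TX SCI, 63 for CONT SCI against No SCI, 254 and 200 for CONT SCI + SWIM and 910 and 931 for CONT SCI + SWW against CONT SCI and No SCI, 2030 and 1396 for any difference, and 774 for the interaction. With all groups in 1 fit, Alb between the uninjured groups of the sets passed (-0.47, adjusted p = 0.0133), Apoe in CONT SCI + Tiny did not (0.78, 0.0925), and Ttr in CONT SCI against No SCI turned to 0.0030. Calls in that fit were 268 and 135 for TX SCI, 10 and 49 for CONT SCI + SWIM, and 20 and 272 for CONT SCI + SWW. Without a filter, Apoe in CONT SCI + Tiny missed the threshold (0.78, adjusted p = 0.0527). Scaled by library totals, Ttr between large and tiny cages turned to 0.033, and Apoe to -0.028 in CONT SCI against No SCI (-0.028 also with totals without the 3 genes), 0.0067 and 0.035 in TX SCI against No SCI and CONT SCI, 0.0033 in CONT SCI + SWIM against CONT SCI and -0.018 in CONT SCI + SWW against CONT SCI + SWIM. Library totals called 23 genes for CONT SCI + SWIM against CONT SCI (1 after TMM, 3 with totals without the 3 genes), 530 for any Exercise difference (346) and 76 for the interaction (25, and 88 without the 3 genes), and no filter called 3 for CONT SCI against No SCI. Relative to TMM, library totals moved the median of all genes from -0.01 to 0.18 between the uninjured groups of the sets, from -0.03 to 0.10 between the contused groups, from 0.01 to 0.14 in TX SCI and from 0.02 to 0.14 in CONT SCI + SWIM against CONT SCI. Totals that leave out the 10 genes with the most counts and Ttr gave other mean shares. They were 14.9% and 12.2% for Alb and 0.862% and 0.991% for Ttr in the In-Cage and Exercise sets. For Apoe the mean was 2.99% in the Exercise set.

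Rats with the same replicate number share only that number. With the replicate block, Ttr between the uninjured groups of the sets lost its call (0.50, adjusted p = 0.123), Apoe between large and tiny cages turned to -0.00091, and the other 46 tests kept their side and direction. The block called 1670 genes in CONT SCI + Tiny, 4359 and 4674 between the sets, and 4 and 124 for any difference, where 584 and 346 were called without it. It called 13 genes for CONT SCI against No SCI (1 without it), 4 and 1 for TX SCI (8 and 4), 7 and 7 for CONT SCI + SWIM (1 and 1), 12 for CONT SCI + SWW against No SCI (50), 1 for CONT SCI + Large against No SCI + Standard (4) and 12 for the interaction (25).

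Leaving out each library in turn, Apoe in CONT SCI + Tiny ranged from 0.66 to 1.01 and Ttr from 0.36 to 0.62, and in CONT SCI + Large Apoe ranged from 0.57 to 1.14 and Ttr from 0.36 to 0.62. Ttr between the uninjured groups of the sets ranged from 0.47 to 0.76 and Alb from -0.52 to -0.32, passing without No SCI + Standard replicate 3 (adjusted p = 0.0322) or 4 (0.0483). Alb between the contused groups ranged from -0.37 to -0.26 and passed without CONT SCI + Tiny replicate 3 (0.0334), and Ttr from -0.016 to 0.20. Alb in TX SCI against CONT SCI ranged from -0.61 to -0.50. The interaction of Apoe ranged from -1.004 to -0.65, and the adjusted p of any In-Cage difference from 0.0376 to 0.291 for Apoe, passing without CONT SCI + Large replicate 1 (0.0376) or No SCI + Standard replicate 1 (0.0461), and from 0.0373 to 0.376 for Ttr, passing without the latter. Values that changed sign stayed far from the threshold: Alb in CONT SCI + Tiny against No SCI + Standard (-0.16 to 0.032), Ttr (-0.093 to 0.097) and Apoe (-0.21 to 0.28) between large and tiny cages, Alb (-0.0020 to 0.14), Ttr (-0.13 to 0.11) and Apoe (-0.093 to 0.14) in CONT SCI against No SCI, and Apoe in TX SCI (-0.19 to 0.087 against No SCI, -0.21 to 0.026 against CONT SCI). The same held between the exercised groups for Ttr (-0.092 to 0.15) and Apoe (-0.023 to 0.059), and against No SCI for Apoe in CONT SCI + SWIM (-0.20 to 0.027) and CONT SCI + SWW (-0.21 to 0.041).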
